A study of Mus musculus with 28 samples.

Results

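The nicotinic and muscarinic acetylcholine receptor genes of the amygdala were followed as a group of 9 named genes, *Chrna3*, *Chrna4*, *Chrna5*, *Chrna7*, *Chrnb2*, *Chrm1*, *Chrm2*, *Chrm3* and *Chrm4*. The group was set by gene name. All 9 were listed among the 49477 genes counted in both batches, and all 9 were among the 16266 that averaged at least 10 counts and were tested. RNA was sequenced from bilateral amygdala micropunches, aimed to include the basolateral and the central amygdala, of 28 adult female C57BL6/J mice that were bought at 7 weeks of age and housed singly. Every mouse had 2 drinking tubes over 28 days and its tissue was collected on day 29. The Water group (n = 10) never had ethanol, the Acute Drinking group (n = 9) had 20% ethanol beside water on 1 day, the last, and the Chronic Drinking group (n = 9) had 20% ethanol beside water every other day, on 14 days. The mice came in 2 batches, the first of 4 Water, 4 Acute and 3 Chronic mice, while the second held 6, 5 and 6. All groups were of this 1 strain, and each library came from 1 mouse.

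Acetylcholine acts on a pair of unrelated receptor families. Nicotinic receptors are ion channels assembled from several subunits that open rapidly, and in the brain most are built of α4 with β2 subunits or of α7 alone, while α5 joins other subunits as an accessory and α3 usually pairs with β4. Muscarinic receptors are single proteins coupled to G proteins: M1, M3 and M5 act through Gq and phospholipase C, and M2 and M4 act through Gi/o, which lowers cyclic AMP and opens potassium channels. The basolateral amygdala receives one of the densest cholinergic inputs of the forebrain, from the basal forebrain, and nicotinic receptors are known as sites through which ethanol and nicotine interact.

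Library totals lay between 20004380 and 22569562 counts per mouse. The batches differed in 7520 of the 16266 genes (46.2%; edgeR, adjusted p under 0.05), and batch was a term in the fits over both. Markers of the labelled tissue were present in all mice: *Slc17a7*, the vesicular glutamate transporter of pallial excitatory neurons, had 792 to 1570 CPM (counts scaled to the same library total) and *Prkcd*, a gene of central amygdala neurons that the thalamic marker list also holds, 22.7 to 49.8 CPM. Markers of neighbouring structures varied, *Ttr* of the choroid plexus from 0.258 to 3900 CPM and *Chat*, the acetylcholine-synthesizing enzyme of cholinergic neurons, from 0.267 to 12.1 CPM.

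The receptor genes lie at 8 places in the genome (GRCm38, GENCODE M21), 2 of them together: *Chrna5* on chromosome 9 from 54980880 to 55007779, on the plus strand, is followed by *Chrna3* from 55010111 to 55026562, on the minus strand, and by *Chrnb4*. The 4 stretches of 250 bases before a start site shown here are from RefSeq (GRCm38.p6), each on the gene's own strand; they were chosen because they belong to the β subunit with the highest nicotinic level, to the linked genes with the lowest levels, and to the receptor with the smallest p-value between Chronic and Water mice. Capitals mark the GC box, GGGCGG or CCGCCC on the other strand.
Chrnb2, chr3:89764633-89764882, minus strand: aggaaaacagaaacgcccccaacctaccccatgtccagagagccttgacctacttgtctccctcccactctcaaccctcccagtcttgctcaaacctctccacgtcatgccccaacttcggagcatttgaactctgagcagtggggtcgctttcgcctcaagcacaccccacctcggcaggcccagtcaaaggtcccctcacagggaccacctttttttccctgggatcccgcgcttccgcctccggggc
Chrna3, chr9:55026563-55026812, minus strand: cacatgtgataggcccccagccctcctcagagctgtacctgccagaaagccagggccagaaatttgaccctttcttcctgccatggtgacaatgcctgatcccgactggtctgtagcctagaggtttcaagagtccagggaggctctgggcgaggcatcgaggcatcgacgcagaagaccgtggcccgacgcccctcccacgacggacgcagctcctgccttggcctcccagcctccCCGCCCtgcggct
Chrna5, chr9:54980630-54980879, plus strand: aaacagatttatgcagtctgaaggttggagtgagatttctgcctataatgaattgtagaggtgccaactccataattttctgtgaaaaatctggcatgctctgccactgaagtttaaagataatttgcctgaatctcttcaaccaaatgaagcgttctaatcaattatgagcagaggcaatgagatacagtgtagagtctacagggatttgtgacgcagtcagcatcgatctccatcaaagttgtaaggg
Chrm4, chr2:91921939-91922188, plus strand: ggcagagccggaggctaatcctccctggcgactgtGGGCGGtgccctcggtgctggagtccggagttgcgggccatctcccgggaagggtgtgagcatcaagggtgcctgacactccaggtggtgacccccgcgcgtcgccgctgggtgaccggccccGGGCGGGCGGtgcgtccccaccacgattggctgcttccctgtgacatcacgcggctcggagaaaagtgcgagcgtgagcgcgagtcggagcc

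The *Chrm4* stretch was 70% G and C with 26 CpG dinucleotides and held 3 GC boxes, at positions -215, -92 and -88 from the start site, of which the last 2 overlap. That of *Chrna3* was 63.2% G and C with 13 CpG dinucleotides and 1 GC box at position -13, and that of *Chrnb2* 59.6% with 10 CpG dinucleotides and no GC box. The *Chrna5* stretch was the poorest in CpG, with 3 and a G and C share of 40%, and held no GC box, while a second RefSeq start of this gene, 608 bases further in, had 17 CpG dinucleotides and 4 GC boxes in its stretch. RefSeq start sites were matched for 8 of the 9 genes, with 9 stretches in all, of which 6 held a GC box, 2 a CCAAT box (CCAAT or ATTGG) and 0 a TATA box (TATAAA or TTTATA). Among all 32851 stretches of the same length, 32.7% held a GC box, 33.8% a CCAAT box and 12.4% a TATA box, and the medians were 52.4% G and C and 6 CpG dinucleotides. These matches describe letters in the stretches and name no bound factor. The RefSeq start of *Chrm4* lies 5060 bases before the gene model used for counting, which holds coding sequence only.

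Levels of different genes were compared per kb of exon, as TMM-normalized CPM divided by the length of the union of a gene's exons. In Water mice (n = 10), the 9 genes spanned a 175-fold range of mean level. *Chrm1* was highest at 34.0 ± 3.08 CPM per kb (mean ± SD), above 92.5% of the tested genes, followed by *Chrm4* at 19.5 ± 2.67, *Chrnb2* at 8.81 ± 0.418 and *Chrna4* at 5.39 ± 1.26. *Chrm3*, *Chrm2* and *Chrna7* lay close together at 3.31 ± 0.636, 3.18 ± 0.356 and 2.75 ± 0.20 CPM per kb. *Chrna5* at 0.388 ± 0.183 and *Chrna3* at 0.195 ± 0.0635 CPM per kb stood above 9.86% and 3.39% of the tested genes.

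Neighbours in this order did not overlap in either batch from *Chrm1* down to *Chrna4*, nor between *Chrna7* and *Chrna5*. *Chrm3* with *Chrm2*, and *Chrna5* with *Chrna3*, overlapped in both batches, so these neighbours were not separated beyond the spread between mice. *Chrna4* and *Chrm3* overlapped in the second batch alone, and *Chrm2* and *Chrna7* in the first alone. These are ranges over mice, and the genes were not compared within each mouse. Where the longest transcript replaced the union of exons, *Chrna7* moved to 4.41 CPM per kb and above *Chrm2* at 3.39. The *Chrm4* value, and that of *Chrm5* given further on, rest on coding length alone, whose effect beside genes annotated with untranslated regions was not tested, and every muscarinic sum, share and ratio per kb carries this limit. The exons of *Chrnb2* overlap *Adar* on the opposite strand, those of *Chrm1* overlap *Gm22820* and those of *Chrm2* overlap *9330158H04Rik*; the use of strand in counting is not given in the sources used here, so such reads could not be told apart.

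**Figure D1:**
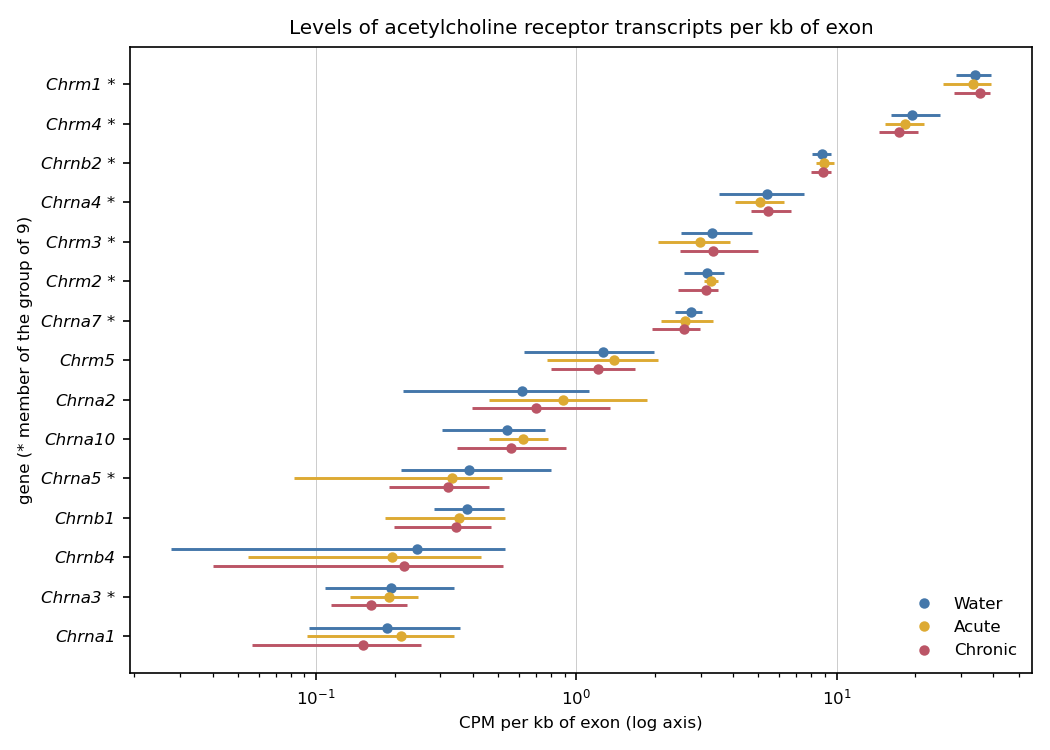
Level of each acetylcholine receptor gene with a mean of at least 10 counts, in CPM per kb of exon on a log axis; points are group means, bars run from the lowest to the highest mouse, colours give the drinking group and asterisks mark the 9 genes. *Chrm1* and *Chrm4* lead, *Chrna5* and *Chrna3* are near the bottom, and the bars of the 3 groups overlap for every gene.

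Among the nicotinic genes, *Chrnb2* made up 45.1% ± 2.04 of the summed level per kb of all 16 nicotinic subunit genes in Water mice, *Chrna4* 27.3% ± 4.83 and *Chrna7* 14.1% ± 1.41 (SD, n = 10). *Chrna5* and *Chrna3* made up 1.98% ± 0.928 and 0.998% ± 0.334. The Chronic group had 45.6% ± 1.38 *Chrnb2*, 28% ± 2.48 *Chrna4* and 13.3% ± 1.14 *Chrna7* (n = 9). Summed per kb, the 5 muscarinic genes reached 3.13 ± 0.222 times the nicotinic sum in Water mice, 3.05 ± 0.247 times in the Acute group and 3.12 ± 0.276 times in the Chronic group.

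Of the receptor subunit genes outside the group of 9, 6 of 12 passed the filter. In Water mice these were *Chrm5* at 1.26 ± 0.422, *Chrna2* at 0.615 ± 0.332, *Chrna10* at 0.543 ± 0.127, *Chrnb1* at 0.380 ± 0.0989, *Chrnb4* at 0.243 ± 0.172 and *Chrna1* at 0.187 ± 0.0863 CPM per kb. Under the filter, *Chrna6* had 0 to 7 counts per mouse and *Chrnb3* 0 to 8, and *Chrna9*, *Chrnd*, *Chrne* and *Chrng* had at most 2 counts in any mouse. *Chrna6* and *Chrnb3* mark midbrain dopamine neurons and the habenula, and *Chrnd*, *Chrne* and *Chrng* belong to the receptor of muscle.

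The comparisons with Water asked whether a single day or a month of intermittent ethanol drinking changed these receptor transcripts. Neither did so detectably: 0 of the 9 genes passed an adjusted p of 0.05 in Acute mice, where 0% of all tested genes did, and 0 of 9 in Chronic mice, where 0.0184% did (edgeR quasi-likelihood test, Benjamini-Hochberg over 16266 genes). At an unadjusted p under 0.05, 0 of 9 passed in Acute mice, beside 9.52% of all genes, and 1 of 9, *Chrm4*, in Chronic mice, beside 10.5% of all genes and 5.65% with a lower value. DESeq2 gave the same counts, 0 adjusted in both comparisons and 0 and 1 unadjusted. Both comparisons share the same Water mice. In bulk tissue, fewer cells of a type and less RNA per cell cannot be told apart.

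The plot of CPM by mouse shows these values one mouse at a time. Batches are drawn side by side because most receptor genes were higher in the second.

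**Figure D2:**
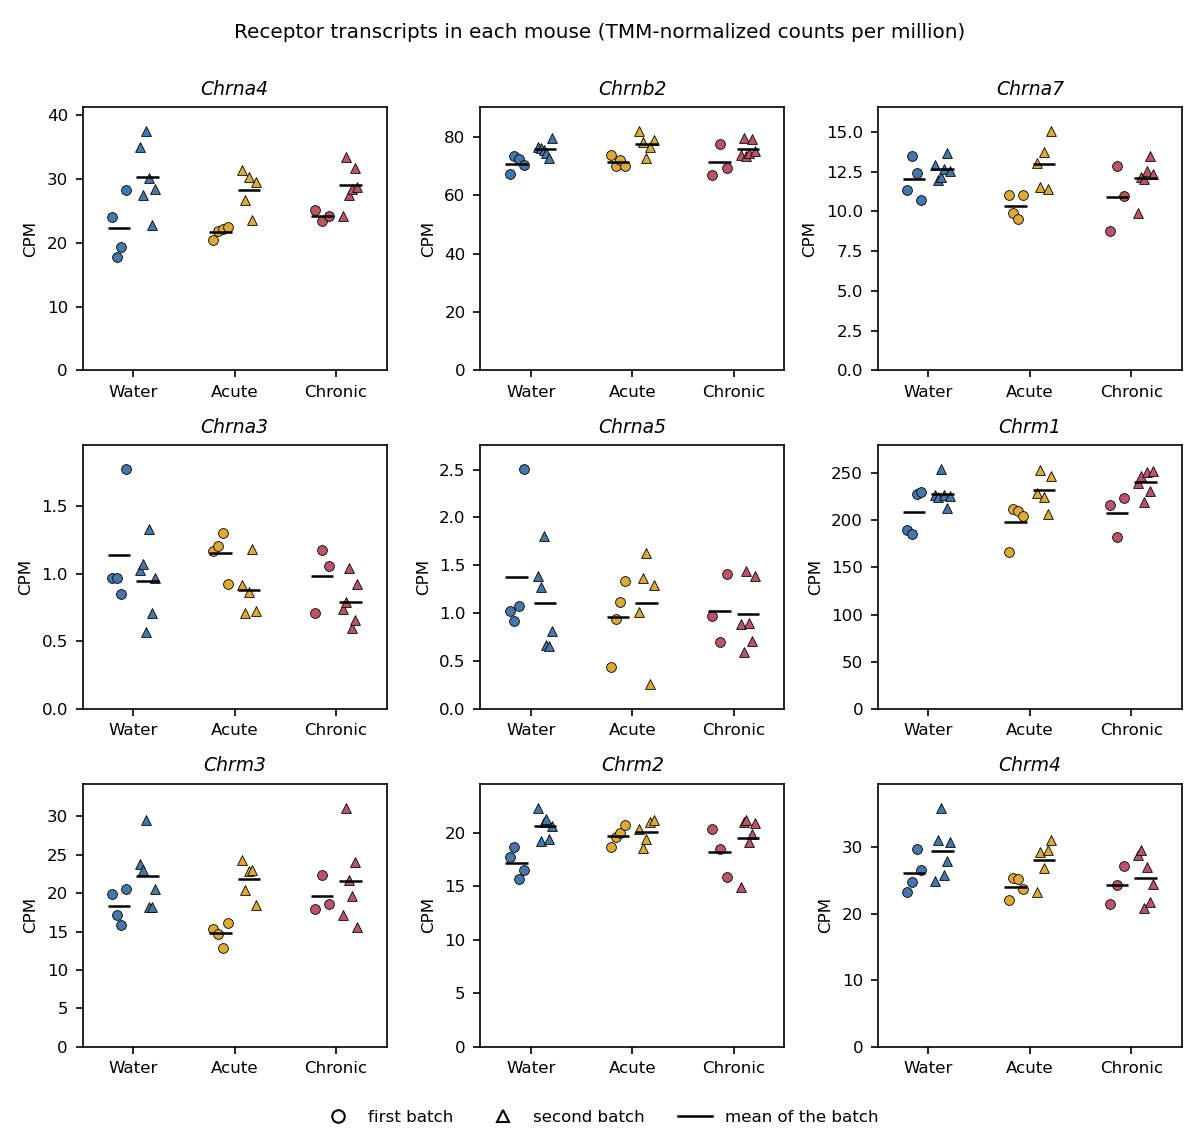
TMM-normalized CPM of the 9 receptor genes in each of 28 mice by drinking group, with circles for the first batch, triangles for the second and a line at each batch's mean; axes start at 0. The groups overlap for every gene within the spread between mice, and *Chrm4* is lowest on average in Chronic mice, at 25.1 CPM beside 28.1 in Water mice.

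*Chrna4* (ENSMUSG00000027577, chromosome 2, 181018380 to 181043546) encodes the α4 subunit, which forms the high-affinity nicotine binding receptor with β2. It ranged from 17.7 to 37.5 CPM in Water mice (median 27.8), from 20.5 to 31.4 in Acute mice (median 23.5) and from 23.5 to 33.5 in Chronic mice (median 27.4). The Water mice had the widest spread, and the range of each ethanol group fell inside theirs. Its log2 fold change against Water was -0.075 in Acute mice (edgeR adjusted p = 0.809, standard error 0.084) and 0.0028 in Chronic mice (standard error 0.083, adjusted p = 0.992).

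*Chrnb2* (ENSMUSG00000027950, chromosome 3, 89746195 to 89764632) encodes the β2 partner subunit. Values ran from 67.1 to 79.6 CPM in Water mice (median 74.0), from 69.9 to 81.9 in Acute mice (median 73.9) and from 66.8 to 79.7 in Chronic mice (median 74.4). These ranges nearly coincide, and the variation between mice within a batch and group, 4.14% as a biological coefficient of variation, was the smallest of the 9 genes. The log2 fold change was 0.024 in Acute mice, with a 95% interval from -0.034 to 0.083, and 0.0034 in Chronic mice, with an interval from -0.055 to 0.062 (edgeR adjusted p = 0.823 and 0.977). The level of *Chrna4* per kb was 0.611 ± 0.132 of that of *Chrnb2* in Water mice, 0.564 ± 0.075 in the Acute group and 0.614 ± 0.0602 in the Chronic group.

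*Chrna7* (ENSMUSG00000030525, chromosome 7, 63098692 to 63212569) encodes the subunit of the calcium-permeable receptor made of α7 alone. Water mice had 10.7 to 13.7 CPM (median 12.5), Acute mice 9.50 to 15.1 (median 11.4) and Chronic mice 8.79 to 13.5 (median 12.2). The lowest were Chronic mouse 37 and Acute mouse 35, both of the first batch, where the Water, Acute and Chronic means were 12.01, 10.4 and 10.9 CPM, and the groups overlapped. The log2 fold change of *Chrna7* was -0.07 in Acute mice (lower in 6 of 9 mice, edgeR adjusted p = 0.784) and -0.099 in Chronic mice (lower in 7 of 9, adjusted p = 0.647). For the Acute mice the batches gave -0.22 (first) and 0.033 (second), a difference between batches that did not pass (edgeR interaction, adjusted p = 0.999).

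*Chrna5* (ENSMUSG00000035594) encodes an accessory α5 subunit that alters the calcium permeability of receptors it joins. It was measured from 5 to 55 counts per mouse. It had 0.66 to 2.502 CPM in Water mice (median 1.04), 0.257 to 1.62 in Acute mice (median 1.12) and 0.594 to 1.44 in Chronic mice (median 0.898). Water mouse 43 was the highest and Acute mouse 4 the lowest, and the rest of the groups lay over one another. The log2 fold changes were -0.22 in Acute mice (95% interval -0.78 to 0.33, edgeR adjusted p = 0.828) and -0.28 in Chronic mice (-0.83 to 0.28, adjusted p = 0.758). Without Water mouse 43 these values were -0.028 and -0.094, and the intervals above span changes in both directions.

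*Chrna3* (ENSMUSG00000032303) encodes the α3 subunit of ganglionic and habenular receptors. Its 11 to 39 counts per mouse gave 0.567 to 1.77 CPM in Water mice (median 0.97), 0.707 to 1.30 in Acute mice (median 0.924) and 0.599 to 1.18 in Chronic mice (median 0.792). Water mouse 43, which also had the highest *Chrna5*, was highest, and every Acute and Chronic mouse fell inside the Water range. The log2 fold change was -0.053 in Acute mice (edgeR adjusted p = 0.948) and -0.24 in Chronic mice (standard error 0.17, lower in 6 of 9 mice, adjusted p = 0.642), with -0.22 and -0.26 in the first and second batch.

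*Chrm1* (ENSMUSG00000032773, chromosome 19, 8663789 to 8683587) encodes the Gq-coupled M1 receptor of principal neurons. With 3837 to 5113 counts per mouse it was the most precisely counted of the 9. Its values were 186 to 254 CPM in Water mice (median 226), 166 to 254 in Acute mice (median 212) and 183 to 253 in Chronic mice (median 231). All 3 groups reached the same upper level and overlapped over most of their range. The log2 fold change was -0.017 in Acute mice (95% interval -0.12 to 0.09, edgeR adjusted p = 0.948) and 0.043 in Chronic mice (-0.064 to 0.15, adjusted p = 0.819).

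*Chrm3* (ENSMUSG00000046159, chromosome 13, 9875486 to 10360847) encodes the Gq-coupled M3 receptor. It ranged from 15.8 to 29.6 CPM in Water mice (median 20.2), from 12.9 to 24.3 in Acute mice (median 18.5) and from 15.6 to 31.1 in Chronic mice (median 19.6). The 3 lowest values were those of Acute mice of the first batch, whose 4 mice had 12.9 to 16.1 CPM beside 15.8 to 20.5 in Water and 18.0 to 22.4 in Chronic mice of that batch, whereas in the second batch the groups lay over one another. The Acute log2 fold change was -0.15 (standard error 0.11, edgeR adjusted p = 0.68), made up of -0.32 for the first and -0.028 for the second batch, and the Chronic one was 0.0031 (adjusted p = 0.993). The first batch fitted alone gave an unadjusted p of 0.0119 and an adjusted p of 0.664 in edgeR for the Acute value. The difference between the batches did not pass (edgeR interaction, unadjusted p = 0.191, adjusted p = 0.999).

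*Chrm2* (ENSMUSG00000045613, chromosome 6, 36388084 to 36528414) encodes the Gi/o-coupled M2 receptor, found on cholinergic terminals and on interneurons. Water mice had 15.7 to 22.4 CPM (median 19.3), Acute mice 18.6 to 21.2 (median 20.0) and Chronic mice 14.9 to 21.2 (median 19.9). Acute mice had the narrowest spread, and in the first batch their 18.69 to 20.7 CPM did not overlap the 15.7 to 18.65 of the Water mice, which was not seen in the second batch, where Water reached 22.4 and Acute 21.2. The Acute log2 fold change was 0.062 (higher in 7 of 9 mice, edgeR adjusted p = 0.759), with 0.20 for the first batch and -0.040 for the second. This difference between batches had an unadjusted interaction p of 0.0436 in edgeR and an adjusted p of 0.999, where 4.13% of all genes had an unadjusted p under 0.05. The Chronic log2 fold change was -0.017 (adjusted p = 0.947). Without Water mice 42 and 43, both of the first batch, the Acute and Chronic values of *Chrm2* were 0.013 and -0.062.

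*Chrm4* (ENSMUSG00000040495, chromosome 2, 91927249 to 91928688, a single exon in the annotation) encodes the Gi/o-coupled M4 receptor, best known from striatal projection neurons and cholinergic neurons. Its values were 23.3 to 36.0 CPM in Water mice (median 27.3), 22.03 to 31.1 in Acute mice (median 25.4) and 20.9 to 29.7 in Chronic mice (median 24.5). The Chronic range was shifted down but overlapped that of Water over most of its length. The log2 fold change in Chronic mice was -0.17 (standard error 0.074, 95% interval -0.32 to -0.02, lower in 7 of 9 mice), with an unadjusted p of 0.0276, an adjusted p of 0.407 in edgeR and an exact permutation p of 0.0578. The batches taken singly gave -0.10 and -0.21. With single mice left out, the unadjusted p for *Chrm4* was under 0.05 in 23 of 28 edgeR fits and reached 0.0746 without Water mouse 3, and without Water mice 42 and 43, which had the lowest striatal marker scores, the value was -0.14 with an unadjusted p of 0.0807. *Chrm4* stood at rank 1102 of the 16266 genes by p-value in that comparison. In Acute mice it was -0.092 (standard error 0.074, adjusted p = 0.708).

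Since *Chrm4* is also a gene of striatal neurons, a striatal marker list (*Drd1*, *Drd2*, *Adora2a*, *Ppp1r1b*, *Rgs9*, *Gpr6*, *Pde10a*) was set beside it. All 7 markers were counted in every mouse, with a summed level of 315.5 to 1237 CPM in Water mice, 435.1 to 1035 in the Acute group and 399.7 to 873.6 in the Chronic group. The list's score, its mean log2 CPM with batch means removed, differed from Water by 0.18 in Acute mice and by -0.27 in Chronic mice. The Water mean of 0.031 includes Water mice 42 and 43, whose scores were -1.26 and -1.31, and these differences depend on them. They were not recomputed without these mice. Across the 28 mice *Chrm4* and this score had an r of -0.095 and a rho of -0.077, with r of -0.665 in the first batch, 0.219 in the second and 0.105 without the 2 mice farthest from the median score. The part of striatal RNA in the *Chrm4* value was not tested.

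The plot of fold changes puts all 9 genes on one scale. For the 7 receptor genes averaging at least 100 counts, the 95% intervals ran from -22.5% to 13.5% in Acute mice and from -20.1% to 16.8% in Chronic mice at their widest, so larger mean differences lie outside them. For the sparsely counted *Chrna5* and *Chrna3* the lower bounds in Chronic mice were -0.83 and -0.58 on the log2 scale. The median log2 fold change of the 9 genes was -0.07 in Acute mice, with 2 above 0 and 7 below, beside 0.0012 over all tested genes, of which 50.6% were above 0, and -0.017 in Chronic mice, with 4 above and 5 below, beside 0.0022, with 51% above 0.

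**Figure D3:**
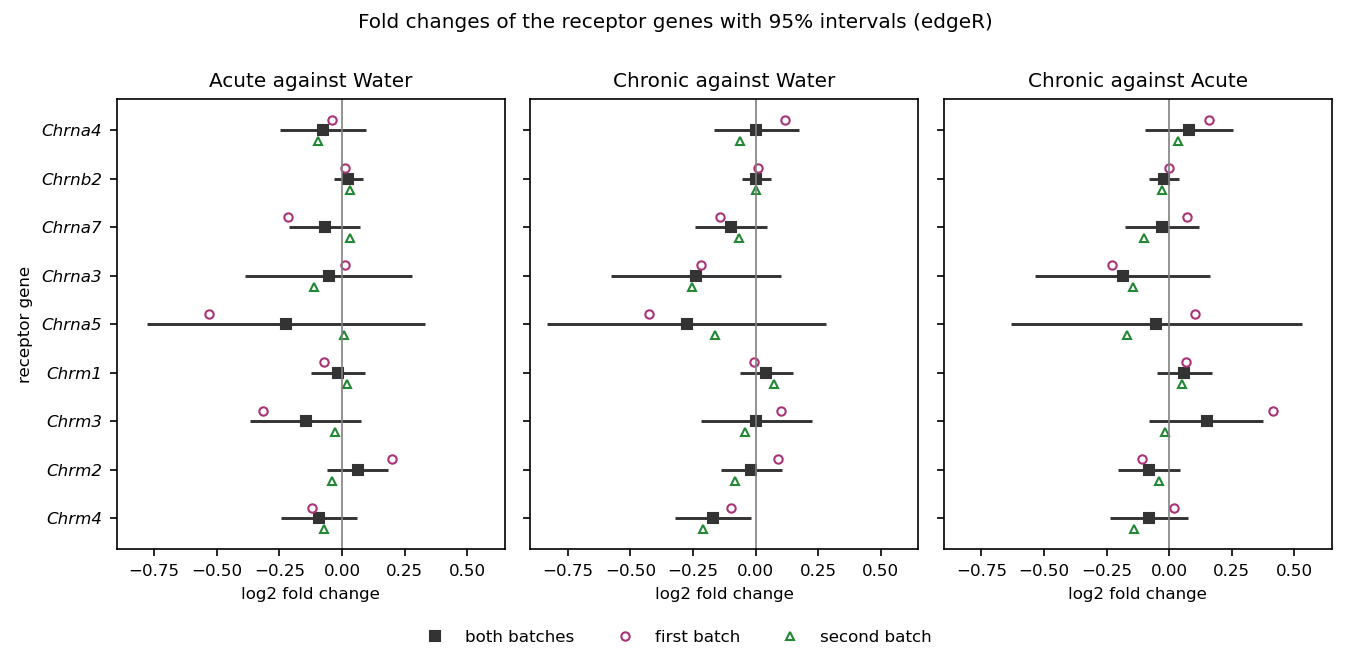
Log2 fold change of each receptor gene in the 3 comparisons, with squares and bars for the value and 95% interval over both batches (edgeR) and open symbols for each batch alone. The only interval that does not reach 0 is that of *Chrm4* between Chronic and Water mice, from -0.32 to -0.02.

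Chronic and Acute mice were also compared with each other. They differed in how often they had drunk, and the paper reports that Chronic mice also drank more ethanol on the last drinking day. It also reports higher blood ethanol in Chronic mice on the final day, measured in the second batch alone. Here 0 of the 9 genes passed, beside 0% of all genes, and 0 of 9 had an unadjusted p under 0.05 in edgeR or DESeq2, beside 4.44% of all genes. *Chrm3* had the smallest p-value, with a log2 fold change of 0.15 (95% interval -0.079 to 0.38, higher in 6 of 9 mice, edgeR adjusted p = 0.998). The first batch alone gave 0.42 (edgeR unadjusted p = 0.00333, adjusted p at least 0.819) and the second -0.015 (unadjusted p = 0.922). This difference between batches did not pass (edgeR interaction, unadjusted p = 0.0637, adjusted p = 0.984). Of the 9, 3 were above 0, beside 49.4% of all genes. The other 8 lay between -0.19 for *Chrna3* and 0.078 for *Chrna4*.

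Within the muscarinic family, the balance of Gi/o-coupled to Gq-coupled receptor transcripts was described as a ratio of summed levels per kb, *Chrm2* with *Chrm4* over *Chrm1* with *Chrm3* and *Chrm5*. It was 0.526 to 0.634 in Water mice (median 0.606), 0.478 to 0.646 in Acute mice (median 0.579) and 0.447 to 0.601 in Chronic mice (median 0.51). The Chronic values reached lower than those of either other group, and 8 of 9 Chronic mice and 5 of 9 Acute mice were below the Water mean of their own batch. In the first batch the mean was 0.584 in Water and 0.552 in Chronic mice, and in the second 0.592 and 0.499. *Chrm4* accounted for 31.8% ± 1.90 of the muscarinic sum in Water mice, 30.7% ± 1.89 in the Acute group and 28.8% ± 2.65 in the Chronic group, and *Chrm1* for 55.5% ± 1.91, 56.3% ± 2.25 and 58.4% ± 2.67. The ratio sums over the genes studied and is given as a description, without a test.

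The other genes of acetylcholine signaling were taken as 4 lists of 44 genes, of which 36 were tested. In edgeR 0 of 36 passed in any of the 3 comparisons. At an unadjusted p under 0.05, 3 were higher and 0 lower in Acute mice, 5 higher and 2 lower in Chronic mice, and 1 higher and 2 lower in Chronic against Acute mice, while the shares of all genes were 5.07% and 4.45%, 4.81% and 5.65%, and 1.95% and 2.5%. DESeq2 called 0 in each and had 3, 7 and 3 in all. The genes named next are the 2 genes of each list with the smallest p against Water in each comparison.

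Of the genes for acetylcholine synthesis, transport and breakdown, 7 of 8 were tested. *Ache*, the esterase that ends the acetylcholine signal, had 56.1 to 94.1 CPM in Water mice (median 76.9), 74.4 to 105.8 in Acute mice (median 84.1) and 74.5 to 104.3 in Chronic mice (median 84.8). The ethanol groups lacked the low values seen in Water mice, while the upper parts overlapped. The log2 fold change of *Ache* was 0.20 in Acute mice (standard error 0.074, 9 of 9 mice above the mean of all Water mice with batch means removed, unadjusted p = 0.0116, edgeR adjusted p = 0.462) and 0.18 in Chronic mice (standard error 0.074, 9 of 9, unadjusted p = 0.0203, adjusted p = 0.37). The values were 0.32 and 0.36 for the first batch, and 0.12 and 0.078 for the second. The lowest *Ache* was that of Water mouse 43, of the first batch, and this mouse and Water mouse 42 also had the lowest scores of the cholinergic neuron list (-2.57 and -2.19) and of the striatal list (-1.31 and -1.26), with oligodendrocyte scores of -0.52 and -0.32. With both left out, an alternative added after these scores were seen, *Ache* had a log2 fold change of 0.13 in Acute (edgeR unadjusted p = 0.0829, adjusted p = 0.528) and 0.12 in Chronic mice (unadjusted p = 0.11, adjusted p = 0.45). The part of these cell types in the *Ache* values was not tested. Next in this list by p-value were *Slc44a1*, a choline transporter, in Acute mice and *Bche* in Chronic mice. Their log2 fold changes were 0.046 and 0.082 (edgeR unadjusted p = 0.323 and 0.51, adjusted p = 0.781 and 0.86), and without Water mice 42 and 43 they were -0.0054 and 0.030.

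All 8 genes for nicotinic receptor chaperones and Ly6 prototoxins were tested. *Tmem35a*, the NACHO chaperone needed to assemble α7 receptors, had 86.2 to 133 CPM in Water, 95.6 to 131 in Acute and 98.2 to 122 in Chronic mice. For *Tmem35a* the log2 fold change was 0.15 in Acute mice (standard error 0.046, 9 of 9 mice above the mean of all Water mice with batch means removed, unadjusted p = 0.00286, edgeR adjusted p = 0.384) and 0.10 in Chronic mice (standard error 0.047, 7 of 9, adjusted p = 0.453). The Acute value was alike in both batches, 0.14 and 0.15, while the Chronic one was -0.026 in the first and 0.17 in the second (edgeR interaction, unadjusted p = 0.0427, adjusted p = 0.802). *Ly6h*, which holds back α7 at the cell surface, had 240 to 315 CPM in Water mice, 262 to 298 after 1 day of ethanol and 277 to 326 in the Chronic group. It differed from Water by 0.022 in Acute mice (adjusted p = 0.905) and by 0.13 in Chronic mice (standard error 0.042, 9 of 9, unadjusted p = 0.00452, adjusted p = 0.252). *Ly6e*, another Ly6 gene, had a log2 fold change of 0.11 in Acute and 0.097 in Chronic mice (adjusted p = 0.485 and 0.458). *Ric3*, a receptor chaperone named here after its values were seen, had the opposite sign in Chronic mice, -0.069 (standard error 0.033, below in 9 of 9 mice, unadjusted p = 0.0429, edgeR adjusted p = 0.458).

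Among the 15 of 16 tested genes for muscarinic G proteins and effectors, *Gnai2*, an inhibitory G protein α subunit, had 196 to 225 CPM in Water, 203 to 240 in Acute and 202 to 240 in Chronic mice, a log2 fold change of 0.062 in Acute (edgeR adjusted p = 0.56) and of 0.093 in Chronic mice (standard error 0.033, 9 of 9 mice above the mean of all Water mice with batch means removed, unadjusted p = 0.00798, adjusted p = 0.29). *Kcnq3*, a subunit of the M-current channel that Gq-coupled receptors close, had a Chronic value of -0.13 (standard error 0.057, below in 8 of 9 mice, adjusted p = 0.436), and *Plcb4*, a phospholipase C, an Acute value of 0.13 (standard error 0.066, adjusted p = 0.557). Without Water mice 42 and 43, the Chronic values of *Gnai2* and *Kcnq3* were 0.11 and -0.16 (edgeR adjusted p = 0.123 and 0.187). The Acute value of *Plcb4* was then 0.088 (adjusted p = 0.666). In the list of other receptor subunits the values were 0.54 for *Chrna2* and 0.20 for *Chrna10* in Acute mice (adjusted p = 0.584 and 0.736; 0.35 and 0.072 without Water mice 42 and 43), and -0.24 for *Chrna1* and -0.13 for *Chrnb1* in Chronic mice (adjusted p = 0.728 and 0.844). For *Chrnb1* the batches went opposite ways, 0.22 (first) and -0.35 (second).

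The receptor genes differed among mice in ways that did not follow the drinking group. Batch was one of them: 7 of the 9 genes were higher in the second batch (edgeR adjusted p from 0.000122 to 0.0437, beside 46.2% of all genes that differed in either direction), with log2 differences from 0.10 for *Chrnb2* to 0.36 for *Chrna4*. The share of all genes that were higher was not counted. *Chrna3* had a difference of -0.32 (adjusted p = 0.0566) and *Chrna5* of -0.071 (adjusted p = 0.824). Beyond batch and group, the biological coefficient of variation was 4.14% for *Chrnb2*, 7.91% for *Chrm2*, 8.05% for *Chrm1*, 9.15% for *Chrna7*, 10.7% for *Chrm4*, 12.2% for *Chrna4* and 15.9% for *Chrm3*, and 14.6% and 36.1% for the sparsely counted *Chrna3* and *Chrna5*.

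Scores of 10 marker lists for cell types and neighbouring structures were compared with the 9 genes across the 28 mice, with batch means removed. The relations with 8 of the lists, 72 in all, were tested, and those with the striatal and pallial lists are descriptions without a test, since these 2 lists were shortened after their values had been seen. *Chrm1* was higher in mice with a higher score of the list of pallial excitatory neurons (*Slc17a7*, *Neurod6*, *Tbr1*, *Emx1*, *Neurod2*), with an r of 0.937 and a rho of 0.932. The r was 0.977 in the first batch, 0.874 in the second and 0.915 without the 2 mice farthest from the median score. *Chrna5* had an r of 0.711 with the same list and a rho of 0.485, 0.868 and 0.612 within the batches and 0.50 without the 2 farthest mice. For *Chrna4* the r was 0.476 and the rho 0.416, 0.359 and 0.62 within the batches and 0.387 without the farthest mice.

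The 5 pallial markers were counted in every mouse, with a summed level of 1195 to 1840 CPM in Water mice, 921.4 to 1803 in the Acute group and 1086 to 1822 in the Chronic group. Acute mice 33 and 4 had the lowest scores, -0.67 and -0.52, and Water mice 43 and 3 the highest, 0.42 and 0.34. Acute mouse 33 also had the lowest *Chrm1* of all mice, and Acute mouse 4 the lowest *Chrna5*. The part of this list in the group values of *Chrm1*, *Chrna4* and *Chrna5* was not tested.

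Of the 72 relations tested, 4 passed a Benjamini-Hochberg adjusted permutation p of 0.05 for Pearson's r, all of them for *Chrm1*. It was lower in mice with a higher score of oligodendrocytes (r = -0.738, permutation p = 3e-05, adjusted p = 0.00216), cholinergic neurons (r = -0.632, p = 0.00098, adjusted p = 0.03), GABAergic interneurons (r = -0.619, p = 0.00125, adjusted p = 0.03) and the central amygdala (r = -0.599, p = 0.00187, adjusted p = 0.0337). Spearman's rho was -0.63, -0.561 and -0.594 for the first 3 (permutation p = 0.00079, 0.00249 and 0.00196, adjusted p = 0.0495 for each) and -0.515 for the central amygdala (p = 0.00777, adjusted p = 0.112). The 4 values of r lay between -0.789 and -0.714 in the first batch and between -0.659 and -0.355 in the second, and between -0.609 and -0.525 without the 2 farthest mice. All markers of these 4 lists were counted in the tested set, with summed levels of 1219 to 3217 CPM for oligodendrocytes, 5.004 to 75.4 for cholinergic neurons, 946 to 1583 for GABAergic interneurons and 348.5 to 473.5 for the central amygdala over all mice. Acute mice scored 0.24 above Water for the central amygdala and 0.11 above for GABAergic interneurons (exact permutation p = 0.0315 and 0.0462, both 0.37 adjusted over 16 comparisons), and the part of these lists in the *Chrm1* values was not tested. Water mice 42 and 43 had the lowest Water scores of both lists, -0.37 and -0.58 for the central amygdala and -0.204 and -0.197 for interneurons. The differences were not recomputed without these mice. Scores and genes come from the same libraries and share their total, and *Sst* is in both the interneuron and the central amygdala list. For the other 8 receptor genes, 0 of 8 lists passed for Pearson's r. The values of r farthest from 0 were -0.506 for *Chrna4* with habenular genes and 0.497 for *Chrnb2* with thalamic genes (permutation test, adjusted p = 0.0741 and 0.0832). *Chrna4* with the central amygdala passed by Spearman's rho alone (rho = -0.56, permutation p = 0.00275, adjusted p = 0.0495), with r = -0.488 (adjusted p = 0.0832). Its r was -0.328 without the 2 farthest mice. The habenular score rests on the 3 of its 6 genes that passed the filter, and *Pou4f1*, a defining habenular marker, had 0 to 2 counts per mouse.

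**Figure D4:**
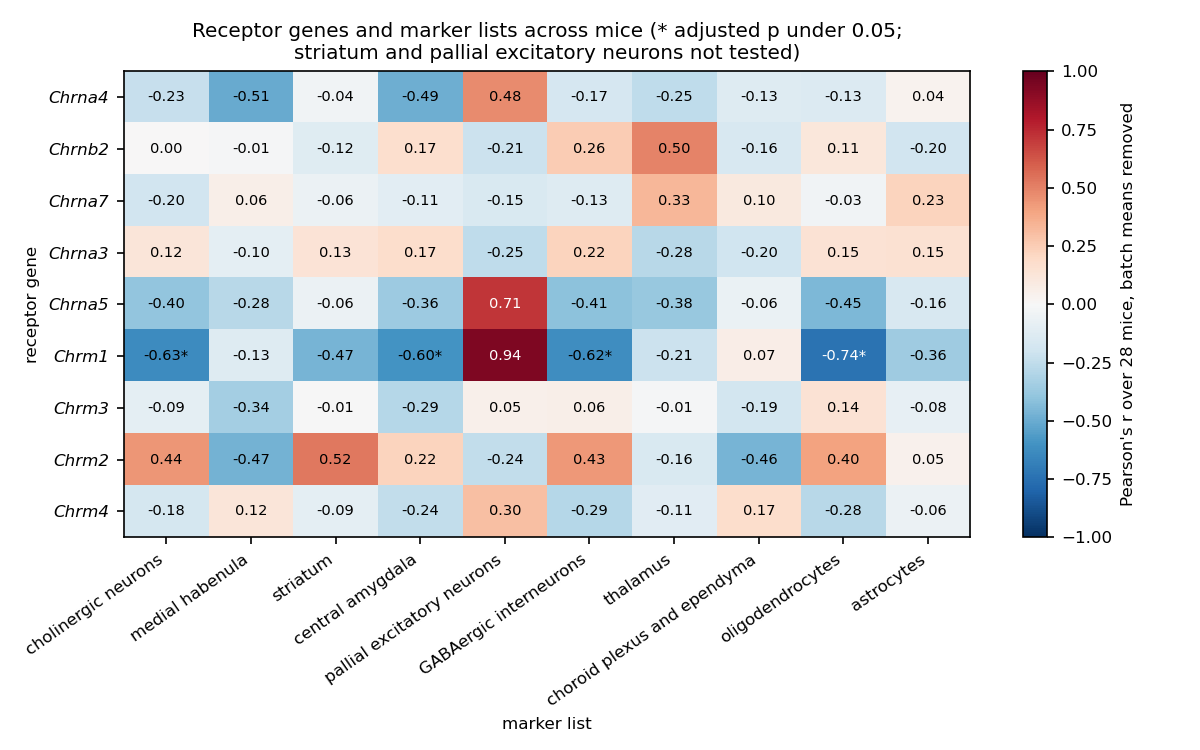
Pearson's r between each receptor gene (rows) and the score of each marker list (columns) over 28 mice with batch means removed; asterisks mark a permutation p under 0.05 after adjustment over the 72 relations tested, which leave out the striatal and pallial columns. *Chrm1* has all 4 asterisks, on negative values down to -0.738 with oligodendrocytes, and the highest value is 0.937, for *Chrm1* in the pallial column.

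**Figure D5:**
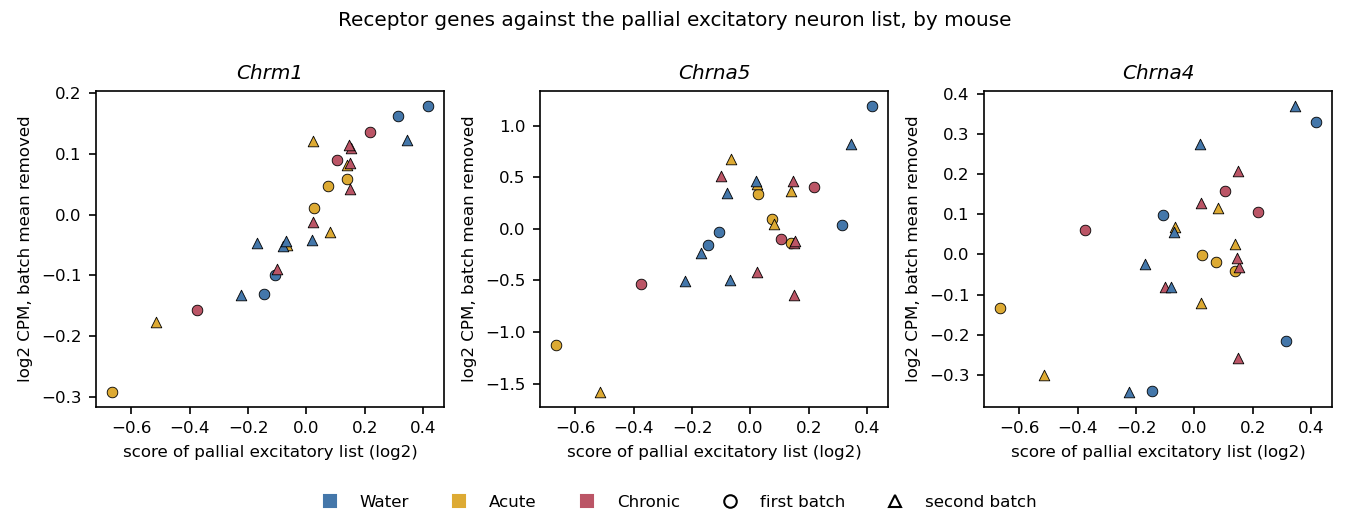
Log2 CPM of *Chrm1*, *Chrna5* and *Chrna4* with batch means removed, against the score of the pallial excitatory neuron list, for each mouse, by drinking group (colour) and batch (symbol). Mice of the 3 groups are intermixed in each panel, with r of 0.937, 0.711 and 0.476, and Acute mice 33 and 4 are at the far left.

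Relations among the receptor genes themselves were weaker than those of *Chrm1* with the pallial and oligodendrocyte lists. Over the 36 pairs r lay between -0.315 for *Chrm2* with *Chrm4* and 0.614 for *Chrna5* with *Chrm1* (rho 0.513, 0.807 and 0.473 within the batches), and 5 pairs had an r above 0.4. *Chrna4* and *Chrm3* had an r of 0.572 (rho 0.638, 0.498 and 0.611 within the batches). *Chrna4* and its partner *Chrnb2* had an r of 0.029, with -0.447 and 0.369 within the batches, and the neighbours *Chrna5* and *Chrna3* one of -0.036, with 0.331 and -0.259, so that the sign of both turned between batches. These values describe 28 libraries and carry no p-value.

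For each receptor gene with a mean of at least 100 counts, the tested genes whose levels followed it most closely over the 28 mice were looked up among 11723 genes. *Chrm1* was matched most closely of all, by *Rtn4r* (r = 0.946), *Cacnb3* (0.938) and *Olfm1* (0.929). *Chrna4* was followed by *Lypd6b* (0.833), a prototoxin gene of the nicotinic list, and *Srcin1* (0.821), and *Chrm3* by *Mdga1* (0.834), *Nrp2* (0.789) and *Nxph4* (0.785). *Chrm4* went with *Ier5l* (0.806), *Klf10* (0.773) and *Gadd45b* (0.754), and *Chrm2* with *Nos1ap* (0.784), *Adarb1* (0.772) and *Arrb1* (0.765). The closest to *Chrnb2* were *Tmem127* (0.757), *Tollip* (0.701) and *Tmem132c* (0.681), and the closest to *Chrna7* were *Mief2* (0.666), *Slc35a3* (0.65) and *Akap10* (0.643). With group means removed as well, the first named stayed first for *Chrna7*, *Chrnb2*, *Chrm1*, *Chrm3* and *Chrm4*, while *Srcin1* came first for *Chrna4* and *Adarb1* for *Chrm2*.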

How the data were processed

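RNA from amygdala punches of 28 mice was sequenced in 2 batches. The authors estimated reads per transcript with Salmon 0.14.1 against GRCm38 (mm10), checked reads with FastQC 0.11.8, and summed transcripts to genes with GENCODE annotation; they deposited these as whole-number gene counts, 1 table per batch, not pooled and not adjusted for batch. The strand setting is not given in the sources used here.

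The deposited counts of the 49477 genes in both tables were joined, and the 16266 that averaged at least 10 counts were tested with the quasi-likelihood test of edgeR 4.0.16 (R 4.3.3) with TMM normalization, group and batch as terms, all 28 mice in 1 fit, and Benjamini-Hochberg adjustment over all tested genes at 0.05. 2-sided exact permutation tests within batches used log2 CPM with batch means removed, with 32340 regroupings against Water (smallest p 3.09e-05) and 16170 between Chronic and Acute. Counts of mice higher or lower for single genes set these values against the mean of the reference group over both batches. Depth was 20004380 to 22569562 counts per mouse. No 2 mice of a group and batch held the same library (55 pairs, lowest chi-square per degree of freedom 3.954). Levels per kb used the union of exons. Marker correlations used 100000 permutations within batches. Alternatives were DESeq2 1.42.0, ComBat-seq (sva 3.50.0) with DESeq2, RLE size factors, other filters, single batches, only the groups compared, GC and length offsets, a replicate block, leaving out each mouse and, chosen after marker scores were seen, leaving out Water mice 42 and 43. The fits were tested on simulated data.

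The genes studied and the gene lists were chosen with earlier results of these data known. Named genes were the 9 receptors, the 2 genes of each other list with the smallest p in each comparison with Water, and the 3 genes most like each receptor with a mean of at least 100 counts. Some genes are not reported here; 2 marker lists were therefore shortened by 1 gene each after their values had been seen, and are described without a test, and *Chrna4* has 2 like genes named.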

Additional observations from a re-analysis of the deposited data

Results flagged for a closer look

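In 1 of 135 groups of mice checked over 45 named genes, a single mouse stood apart from its group. *Chrna10*, the α10 subunit gene, was lowest in Water mouse 42 at 0.802 CPM (18 counts), and on the log2 CPM scale with batch means removed its gap to the next mouse was 0.473 of the range of the Water group, beside a critical value of 0.466. Chance alone sets about 1 in 20 such groups apart, and 0 of the 9 receptor genes studied had such a mouse.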

How the results depend on the processing

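Of 291 recomputed fold changes of the 9 receptor genes under 11 settings, leaving out mice aside, 270 kept their direction, 21 reversed and 0 passed the threshold. For *Chrm4* between Chronic and Water mice every one was below 0, with adjusted p from 0.246 to 1 and values from -0.21 to -0.13 when single mice were left out. In the first batch alone the Acute value of *Chrna3* was 0.011, the Chronic values of *Chrm1* and *Chrm2* were -0.0073 and 0.0899, and the Chronic against Acute values of *Chrna5*, *Chrna7* and *Chrm4* were 0.10, 0.073 and 0.019. In the second batch alone the Acute values of *Chrna5*, *Chrna7*, *Chrm1* and *Chrm2* were 0.0094, 0.033, 0.021 and -0.0404, the Chronic values of *Chrna4* and *Chrm3* were -0.0605 and -0.043, and *Chrm3* in Chronic against Acute mice was -0.015. GC and length offsets gave Chronic values of -0.026 for *Chrna4*, -0.0013 for *Chrnb2* and 0.027 for *Chrm2*, and ComBat-seq with DESeq2 gave -0.000117 for *Chrnb2*. The cause of these reversals was not tested.

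Same-numbered mice of the second batch did not deviate together: 4 of 16 pairs had a correlation above 0.1, with a range from -0.346 to 0.338. With the replicate number as a block, 0 receptor genes were called in each comparison, and over all genes 0, 3 and 0; the Chronic value of *Chrm3* was -0.000107, and with GC and length offsets as well the block gave -0.019 for *Chrna4*, -0.00113 for *Chrnb2*, 0.025 for *Chrm2* and 1 gene called over all genes in Chronic mice.

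Over all genes, the calls between Acute and Water mice numbered 0, but 1 without a filter, 9 with DESeq2 and 30 with ComBat-seq and DESeq2. Those between Chronic and Water mice numbered 3, but 0 in the first batch alone, 1 with GC and length offsets, 38 with DESeq2 and 88 with ComBat-seq and DESeq2; between Chronic and Acute mice there were 0, and 1 without a filter. Leaving out single mice gave 0 to 2 calls in Acute mice (1 without Acute mouse 34, 2 without Chronic mouse 38) and 2 to 6 in Chronic mice (5 without Chronic mouse 37, 6 without Water mouse 3), and 0 receptor or pathway genes throughout. Values that changed sign with single mice left out were, in Acute mice, *Chrna3* (-0.11 to 0.057) and *Chrm1* (-0.039 to 0.013), in Chronic mice, *Chrna4* (-0.035 to 0.049), *Chrnb2* (-0.016 to 0.015), *Chrm2* (-0.045 to 0.026) and *Chrm3* (-0.068 to 0.058), and between Chronic and Acute mice, *Chrna5* (-0.18 to 0.066) and *Chrna7* (-0.0698 to 0.013). Of the 27 values, 8 changed sign in this way and another 18 moved by over 1.5 times, among them, against Water, *Chrna5* in Acute (-0.34 to -0.028) and in Chronic mice (-0.36 to -0.094) and *Chrna3* in Chronic mice (-0.30 to -0.14), each nearest to 0 without Water mouse 43, *Chrna4* in Acute mice (-0.11 to -0.032, nearest to 0 without Water mouse 3), and *Chrm3* between Chronic and Acute mice (0.078 to 0.20, nearest to 0 without Chronic mouse 2). With the longest transcript as length, Water levels were 4.41 CPM per kb for *Chrna7*, 11.5 for *Chrnb2* and 4.77 for *Chrm3*. *Chrna3* and *Chrna5* were the most sparsely counted, with at most 55 counts in a mouse. With Water mice 42 and 43 left out, an alternative added after their marker scores were seen, 0 receptor genes and 0 pathway genes were called and 25 of all genes in Chronic mice; 25 of 27 receptor values kept their direction, and the Acute values of *Chrna3* and *Chrm1* became 0.010 and 0.038. Other values that moved by over 1.5 times were, in Acute mice, *Chrna5* (-0.017), *Chrm2* (0.013) and *Chrm4* (-0.060), and in Chronic mice *Chrna5* (-0.083), *Chrm1* (0.093), *Chrm2* (-0.062), *Chrna4* (0.015), *Chrnb2* (0.0071) and *Chrm3* (0.0072). In that fit *Chrm4* no longer had an unadjusted p under 0.05 in Chronic mice, which left 0 of 9.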
